A study of Mus musculus with 6 samples.

Results

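The enzymes that modify and crosslink collagen were followed in tumor cells sorted from orthotopic mouse colon tumors. The group was chosen by gene name, with earlier results of these data known, and holds 10 genes of the 22880 in the deposited table. These are the prolyl 4-hydroxylase subunits P4ha1, P4ha2 and P4ha3, the lysyl hydroxylases Plod1, Plod2 and Plod3, the lysyl oxidases Lox, Loxl1 and Loxl2, and the collagen chaperone Serpinh1. All 10 passed the filter on low counts that left 12014 genes for testing. The cells were MC-38, a mouse colon carcinoma line labelled with green fluorescent protein (GFP), grown in the cecum wall of mice, in a comparison of cells with a stable knockdown of HIF-1α (HIF-1α-KD) and their controls (Mock). Both groups had been transduced with pLKO.1-puro, a vector for short hairpin RNAs, and had not been passaged in vivo before. The control thus shares the vector, and whether the lines differ in more than the knockdown was not tested. Living GFP-positive cells without CD45 and CD31 were sorted and their RNA was sequenced, with 3 Mock and 3 HIF-1α-KD samples. The host mice kept their own HIF-1α. Whether a library came from a single tumor and whether each line was 1 clone are not given in the sources used here, so the p-values measure only the spread between these samples.

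Collagen chains are hydroxylated while they are made in the endoplasmic reticulum. Prolyl 4-hydroxylases, tetramers of alpha subunits (P4ha genes) and the beta subunit P4hb, hydroxylate prolines, which keeps the triple helix stable at body temperature. Lysyl hydroxylases (Plod genes) prepare lysines for crosslinks, and Plod2 acts on the ends of the chains outside the helix. Serpinh1, also known as HSP47, holds folded procollagen until it leaves the endoplasmic reticulum. Outside the cell, lysyl oxidases turn lysines into the aldehydes from which crosslinks form. The hydroxylases need oxygen, iron and 2-oxoglutarate, as do the enzymes that mark HIF-1α for destruction. P4ha1, P4ha2, Plod2 and Lox are known targets of hypoxia-inducible factor (HIF) in several cell types.

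HIF binds DNA at a short core of ACGTG or GCGTG, and the stretches upstream of the genes are shown because they show where this core is present in members with lower and with higher mean transcript levels in HIF-1α-KD cells. None of these differences passed an adjusted p-value of 0.05 in limma, though that of P4ha2 did in DESeq2 (adjusted p = 0.039), and the groups overlapped for P4ha1 and Serpinh1. RefSeq gave the 250 bases before the start site on GRCm38.p6 for 6 of the 10 genes. Plod2, Lox, Loxl1 and Loxl2 had no entry. Each sequence runs 5′ to 3′ on the strand of its gene and ends just before the start site. Capitals mark ACGTG or GCGTG, or on the other strand their complements CACGT and CACGC. The windows are chr10:59323046-59323295 and chr11:54100674-54100923 on the plus strand for the prolyl 4-hydroxylase subunits with the lower means, and chr7:99353240-99353489 on the minus strand for the chaperone with the higher mean. None of these windows overlaps an exon annotated by GENCODE, and that of P4ha2 lies in an intron of a longer annotated P4ha2 transcript.
P4ha1: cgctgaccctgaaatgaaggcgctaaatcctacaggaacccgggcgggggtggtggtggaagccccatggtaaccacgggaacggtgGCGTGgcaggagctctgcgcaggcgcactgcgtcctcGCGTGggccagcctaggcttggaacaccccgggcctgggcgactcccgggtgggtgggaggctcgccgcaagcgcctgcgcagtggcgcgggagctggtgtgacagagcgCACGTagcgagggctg
P4ha2: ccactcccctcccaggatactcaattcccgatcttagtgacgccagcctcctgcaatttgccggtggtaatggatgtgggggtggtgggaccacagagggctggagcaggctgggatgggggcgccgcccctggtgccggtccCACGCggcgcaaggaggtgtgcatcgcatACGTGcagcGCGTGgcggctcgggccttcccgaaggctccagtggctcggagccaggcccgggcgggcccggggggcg
Serpinh1: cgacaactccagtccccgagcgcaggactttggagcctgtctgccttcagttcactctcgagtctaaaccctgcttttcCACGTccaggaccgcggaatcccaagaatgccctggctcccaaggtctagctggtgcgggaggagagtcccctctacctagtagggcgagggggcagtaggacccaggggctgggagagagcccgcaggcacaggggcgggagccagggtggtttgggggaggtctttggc

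P4ha1 and P4ha2 each held 3 matches, Plod3 held 4, Plod1 and Serpinh1 held 1 each, and P4ha3 held 0. The log2 fold changes of HIF-1α-KD against Mock were -0.04 for Plod3, -0.31 for Plod1 and 0.30 for P4ha3, whose windows are not printed. The Plod3 window overlaps an exon of Znhit1, a gene on the opposite strand. Whether the number of matches goes with the direction was not tested. In P4ha1 the match nearest to the start began 16 bases before it, on the other strand. In P4ha2 all 3 matches lay between 107 and 65 bases before the start. The single match of Serpinh1 began 171 bases before the start. Of all 32851 windows of this length in the RefSeq table, 38.6% held at least 1 match and 6.58% held 3 or more. A match describes letters in the window and says nothing about binding in these cells.

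Between 19845852 and 30809139 reads per library fell on genes. The values below are normalized counts, the reads of a gene divided by 1 factor per library, unless FPKM (fragments per kilobase of transcript, scaled to the total reads) is named. Hif1a, the targeted gene, was lower in HIF-1α-KD cells without overlap of the groups, with a log2 fold change of -1.82 ± 0.46 (SE) and an adjusted p-value of 0.219. Its normalized counts were 6914, 5424 and 4945 in Mock, against 697, 3142 and 1928 in the HIF-1α-KD group. The log2 fold change of Hif1a was -1.21 without HIF-1α-KD replicate 1, the lowest library, and -1.07 without both libraries numbered 1. The first principal component held 39.2% of the variance, with Mock replicate 1 at one end and HIF-1α-KD replicate 1 at the other. Values without both are given for several genes below. Summed FPKM of 8 leukocyte markers ranged from 106 to 114 in Mock and from 71.7 to 367 in HIF-1α-KD libraries, with the maximum in HIF-1α-KD replicate 3. For 6 endothelial markers the sum ranged from 5.44 to 6.38 in Mock and from 3.83 to 5.45 in HIF-1α-KD libraries. For 8 fibroblast markers it ranged from 708 to 1385 and from 871 to 1203, respectively. For 8 markers of colon epithelium it ranged from 1.38 to 14.6 and from 1.65 to 3.13, with the maximum in Mock replicate 3. Epcam, the defining epithelial adhesion molecule, was at most 0.719 FPKM in any library and Cdx2, the intestinal transcription factor, at most 0.0419 FPKM. Epcam and Cdx2 were thus near 0 in cells of a colon carcinoma line, but other markers of the list were higher. Krt8 and Krt19 reached 4.15 and 4.82 FPKM in Mock replicate 3, and Cdh1 lay between 0.395 and 1.31 FPKM in all libraries. No listed marker was at 0 in every library.

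Most of the 10 genes had lower transcript levels in HIF-1α-KD than in Mock cells, with Lox, Plod2 and P4ha2 the ones without overlap of the groups, but none passed an adjusted p-value of 0.05 in limma. Of the 10 genes, 8 were lower and 2 higher, with a median log2 fold change of -0.41, against 0.02 over all genes tested. Without Mock replicate 3 the median of the 10 was -0.26. Adjusted p-values of limma ranged from 0.190 to 0.955, so 0 of 10 genes were called, where 0.391% of all genes tested were, 0.383% as lower and 0.00832% as higher. At an unadjusted p-value under 0.05, 5 of 10 genes were called, compared with 12.7% of all genes. Lox, Plod2, P4ha2 and P4ha1 were the 4 lower ones, beside 5.69% of all genes, and Serpinh1 was the 1 higher, beside 7.04%. Overlap between the groups was absent for 3 of 10 genes, compared with 19.2% of all genes, and all 3, Lox, Plod2 and P4ha2, were lower, compared with 8.75%. DESeq2 on the recovered reads called the same 3 genes at an adjusted p-value under 0.05, where it called 2.36% of all genes. At that limit edgeR called 0 of the 10, beside 0.391% of all genes. In counts simulated with known changes, 26.1% of DESeq2 calls at that limit were false, against 4.41% for limma and 5.63% for edgeR. At an unadjusted p-value under 0.05 edgeR called 5 of the 10 and 1493 of all 12014 genes. Because the 10 genes were chosen with earlier results of these data known, these shares describe the list and do not test it. In these sorted populations, fewer cells that carry a transcript and less transcript per cell cannot be told apart.

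**Figure D1:**
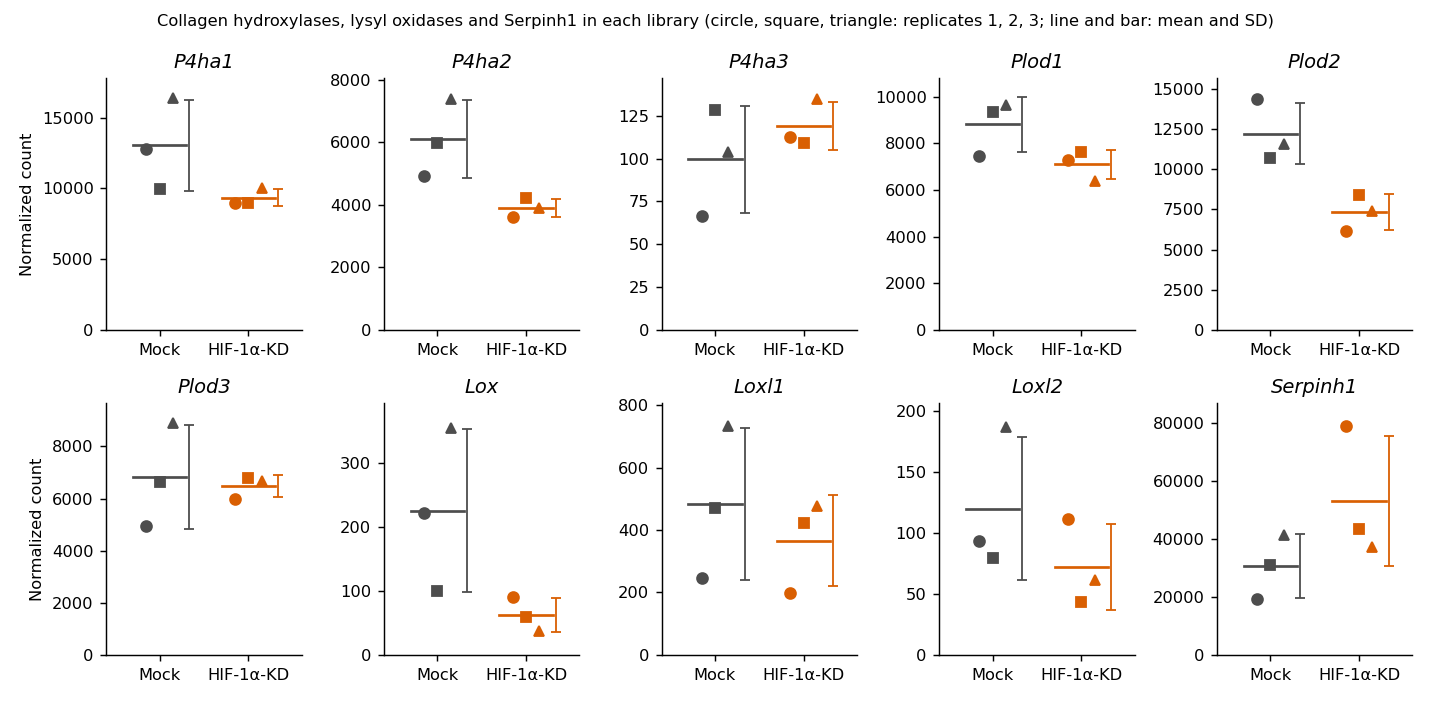
Normalized counts (vertical axes, linear and starting at 0) of the 10 genes in 3 Mock and 3 HIF-1α-KD libraries, with symbols for replicates 1 to 3, a line at the group mean and a bar for the SD. The groups are apart for P4ha2, Plod2 and Lox, while HIF-1α-KD replicate 1 stands above the other libraries for Serpinh1.

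Among the prolyl 4-hydroxylase subunits, P4ha1 and P4ha2 had lower means in HIF-1α-KD cells and P4ha3 a higher one. P4ha2 (chr11:54100095-54131665, plus strand, GRCm38) had normalized counts of 4921, 5987 and 7399 in Mock, against 3621, 4208 and 3890 in the HIF-1α-KD group. Every HIF-1α-KD library was below every Mock library. The means were 6102 ± 1243 and 3906 ± 294 (SD, n = 3 each). The log2 fold change of P4ha2 was -0.63 ± 0.17 (SE), with an unadjusted p-value of 0.0055 and an adjusted p-value of 0.245 in limma. With any 1 library left out, its log2 fold change lay between -0.77 and -0.48, and the unadjusted p-value stayed under 0.05 in 6 of 6 fits.

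P4ha1 (chr10:59323296-59373304, plus strand) encodes the alpha subunit found in most cells. Its normalized counts were 12780, 9963 and 16390 in Mock, against 8986, 8999 and 10030 in the HIF-1α-KD group. The HIF-1α-KD libraries lay close together, and the groups overlapped through Mock replicate 2 and HIF-1α-KD replicate 3. The log2 fold change was -0.45 ± 0.19 (SE), with an unadjusted p-value of 0.0399 and an adjusted p-value of 0.381. With 1 library left out, P4ha1 kept an unadjusted p-value under 0.05 in 1 of 6 fits, that without Mock replicate 2. Without Mock replicate 3, the highest library, the log2 fold change was -0.27.

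P4ha3, a further alpha subunit, had between 54 and 140 reads per library. It had 66.5, 128 and 104 normalized counts in Mock, against 113, 109 and 135 in the HIF-1α-KD group, which overlapped. Its log2 fold change of 0.30 ± 0.30 (SE) had a 95% interval from -0.39 to 0.98, which includes differences of either sign. It was 0.04 without Mock replicate 1 and 0.07 without both libraries numbered 1.

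Of the lysyl hydroxylases, Plod2 was the one whose groups did not overlap. Plod2 (chr9:92542223-92608428, plus strand) had normalized counts of 14360, 10730 and 11590 in Mock, against 6156, 8401 and 7404 in the HIF-1α-KD group. The lowest Mock library was above the highest HIF-1α-KD library. The means were 12227 ± 1897 and 7320 ± 1125 (SD, n = 3 each), a log2 fold change of -0.74 ± 0.17 (SE). In limma with all libraries, Plod2 had the smallest p-values of the 10 genes, 0.0021 unadjusted and 0.190 adjusted. In DESeq2 Lox was slightly before it, with adjusted p-values of 0.0092 for Lox and 0.0094 for Plod2. With 1 library left out the log2 fold change of Plod2 stayed between -0.85 and -0.62, with an unadjusted p-value under 0.05 in 6 of 6 fits. Without both libraries at the ends of the first principal component it was -0.50.

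Plod1, which hydroxylates lysines within the helix, had normalized counts of 7463, 9357 and 9636 in Mock, against 7286, 7630 and 6396 in the HIF-1α-KD group. The groups overlapped through Mock replicate 1. Plod1 had a log2 fold change of -0.31 ± 0.15 (SE), with a 95% interval from -0.65 to 0.04 and an adjusted p-value of 0.447. Plod3, which also transfers sugars onto hydroxylysine, had 4930, 6635 and 8899 in Mock, against 5981, 6775 and 6660 in the HIF-1α-KD group. Here all HIF-1α-KD values lay inside the Mock range. For Plod3 the log2 fold change was -0.04 ± 0.21 (SE), with a 95% interval from -0.51 to 0.44, and its sign turned under library size scaling and without Mock replicate 3 or HIF-1α-KD replicate 1. Plod3 overlaps 1003 bases of Znhit1, a gene on the opposite strand that is also in the table, and whether the counting used strand is not given in the sources used here.

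Lox, Loxl1 and Loxl2 were expressed at low levels. Lox, on chromosome 18, had normalized counts of 222, 100.5 and 355 in Mock, against 90.1, 60.0 and 37.0 in the HIF-1α-KD group. The groups did not overlap, although the gap between Mock replicate 2 and HIF-1α-KD replicate 1 was narrow, and the values rested on 32 to 294 reads. Lox had a log2 fold change of -1.75 ± 0.49 (SE), the largest in size of the 10 genes, with an unadjusted p-value of 0.0064 and an adjusted p-value of 0.253. It lay between -2.24 and -1.34 with 1 library left out.

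Loxl1, which acts on elastic fibers, had 245, 471 and 733 in Mock, against 199.5, 422 and 477 in the HIF-1α-KD group, and the groups overlapped widely. Its log2 fold change was -0.36 ± 0.44 (SE), with a 95% interval from -1.36 to 0.64, and it was 0.01 without Mock replicate 3. Loxl2, which crosslinks collagen IV of basement membranes, had 93.6, 79.4 and 187 in Mock, against 112, 43.2 and 61.2 in the HIF-1α-KD group. Mock replicate 3 was the highest library for Lox, Loxl1 and Loxl2 alike. For Loxl2 the log2 fold change was -0.74 ± 0.44 (SE), with a 95% interval from -1.74 to 0.27 and an adjusted p-value of 0.529. It was -0.37 without Mock replicate 3, -0.43 without HIF-1α-KD replicate 2 and -1.10 without HIF-1α-KD replicate 1, where the unadjusted p-value was 0.0258. With all libraries it equalled that of Plod2 in size, but with a larger SE. Loxl2 shares most of its span with a gene annotated on the opposite strand, and Lox and Plod2 overlap such genes in part.

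Serpinh1 (chr7:99345376-99353239, minus strand) was the main exception to the lower levels. It had normalized counts of 19340, 30870 and 41510 in Mock, against 78850, 43480 and 37130 in the HIF-1α-KD group. HIF-1α-KD replicate 1 stood far above the other libraries, and HIF-1α-KD replicate 3 lay below Mock replicate 3. Serpinh1 had a log2 fold change of 0.79 ± 0.34 (SE), with an unadjusted p-value of 0.0464 and an adjusted p-value of 0.388. The unadjusted p-value was under 0.05 in 3 of 6 fits with 1 library left out, and was lost without Mock replicate 1, Mock replicate 2 or HIF-1α-KD replicate 1 and under scaling by the trimmed mean of M values (TMM), without the trend of limma or with the replicate block. Its log2 fold change was 0.49 without Mock replicate 1 and 0.46 without HIF-1α-KD replicate 1. Without Mock replicate 1 and HIF-1α-KD replicate 1 together, the log2 fold change of Serpinh1 was 0.17 ± 0.20 (SE).

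**Figure D2:**
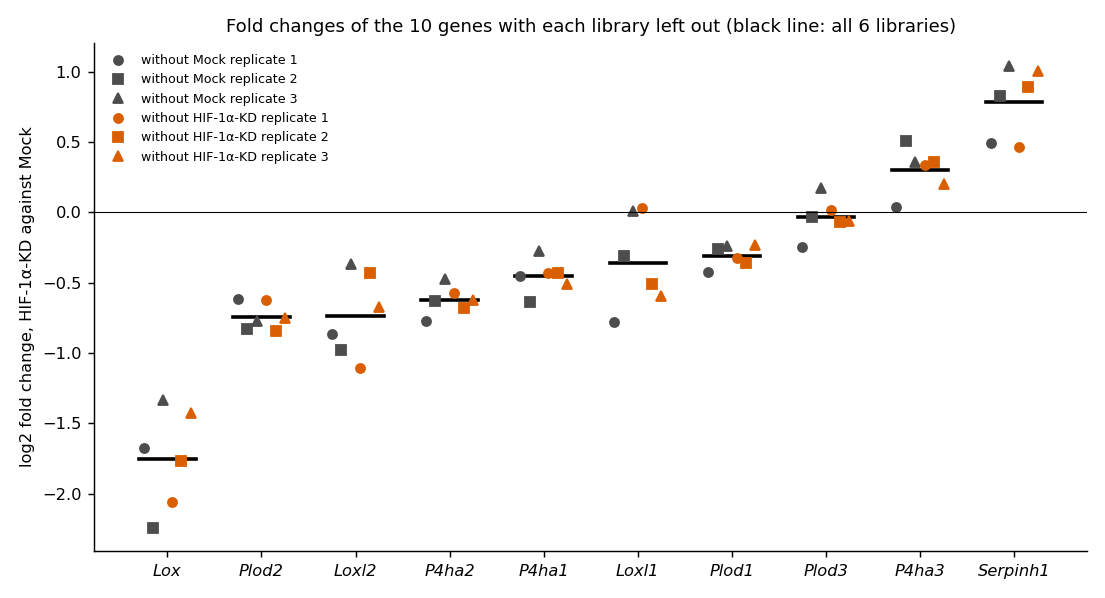
Log2 fold change of HIF-1α-KD against Mock (vertical axis) for the 10 genes with each library left out in turn, with black lines for all 6 libraries. Lox, Plod2, Loxl2, P4ha2, P4ha1 and Plod1 stayed below 0 and P4ha3 and Serpinh1 above 0 in all 6 fits, while Plod3 and Loxl1 crossed 0.

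Per transcript length, the genes fell into a high and a low set. Serpinh1 had the highest FPKM in Mock cells, 524 ± 188 (SD, n = 3), and did not overlap with the next gene. The intracellular hydroxylases followed with mean FPKM of 242 for Plod2, 210 for Plod1, 208 for P4ha2, 166 for P4ha1 and 150.5 for Plod3, and each overlapped with its neighbour in this order. The low set had mean FPKM of 5.78 for Loxl1, 2.21 for Lox, 2.0 for P4ha3 and 1.14 for Loxl2, with overlapping neighbours too. In HIF-1α-KD cells Serpinh1 led again with 941 ± 373 FPKM, Plod1 stood before Plod2 with 175 and 151.5 FPKM, and Lox came last with 0.636 FPKM. The order of the hydroxylases depends on the length used. The deposited width of P4ha2 is 1170 bases, whereas the union of its exons in GENCODE is 6239 bases. Per exon union, P4ha1 had 126 and P4ha2 39.0 FPKM in Mock cells. In HIF-1α-KD cells Plod3, Plod2 and Plod1 had 59.5, 56.5 and 43.6 FPKM per exon union, so Plod2 stood before Plod1 there.

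The balance within the families was compared per library from FPKM, with an exact permutation test that cannot give a p-value below 0.1 with 3 libraries against 3. Plod2 made up 49.9%, 36.6% and 35.1% of the summed Plod FPKM in Mock, against 28.6%, 33.5% and 33.0% in the HIF-1α-KD group. The groups did not overlap (exact p = 0.1, two-sided), and the difference of -8.85 percentage points was -4.17 without Mock replicate 1. P4ha1 made up 44.1 ± 5.6% of the P4ha FPKM in Mock and 46.8 ± 2.4% in HIF-1α-KD cells (SD, n = 3 each, exact p = 0.7). Per exon union these shares were 75.6% and 77.3%, and from normalized counts 67.5% and 69.9%. The groups overlapped on all 3 scales. Lox made up 24.9 ± 11.5% of the FPKM of Lox, Loxl1 and Loxl2 in Mock and 11.9 ± 7.7% in HIF-1α-KD cells, with overlap (SD, n = 3 each, exact p = 0.2). That difference of -13.0 percentage points was -7.28 without Mock replicate 1. With Loxl3 and Loxl4 added to the family, Lox made up 4.40% and 1.29%, a difference of -3.12 percentage points.

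The summed FPKM of P4ha1 to P4ha3 was 325, 349 and 455 in Mock, against 243, 275 and 279 in the HIF-1α-KD group. That of Plod1 to Plod3 was 558, 607 and 643 in Mock, against 432, 524 and 471 in the HIF-1α-KD group. Both sums were lower in every HIF-1α-KD library than in any Mock library (exact p = 0.1 each). Without Mock replicate 3 the difference in the P4ha sum was -71.4 in place of -110.9 FPKM. The sum of Lox, Loxl1 and Loxl2 was 9.12 ± 4.1 in Mock and 5.93 ± 1.4 FPKM in HIF-1α-KD cells and overlapped (SD, n = 3 each, exact p = 0.3). The difference of -3.19 FPKM was -0.858 without Mock replicate 3 and -4.82 without Mock replicate 1. With Loxl3 and Loxl4 added, the difference turned, with 52.4 FPKM in Mock and 55.7 FPKM in HIF-1α-KD cells, since Loxl3 alone had 36.0 and 43.1 FPKM.

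The summed transcript level of the fibrillar collagens, the main substrates of these enzymes, was higher in HIF-1α-KD cells. The sum over 11 genes was, in FPKM, 1978, 5773 and 3765 in Mock, against 9748, 8072 and 7537 in the HIF-1α-KD group, without overlap (exact p = 0.1). Col1a1, with mean FPKM of 907 and 2966, and Col3a1, with 2116 and 4437, carried most of the difference, whereas Col1a2 had 358 and 364 FPKM and Col5a3 138 and 137 FPKM. Of the 10 fibrillar collagen genes tested, 0 passed an adjusted p-value of 0.05 in limma (0.391% of all genes), 6 were higher at an unadjusted p-value under 0.05 (7.04%), and 4 were higher without overlap (10.4%), while the groups overlapped for the other 6. These genes are named after their values were seen. Per 100 FPKM of fibrillar collagen, the P4ha genes had 16.4, 6.04 and 12.1 FPKM in Mock, against 2.50, 3.40 and 3.70 FPKM in the HIF-1α-KD group. The Plod genes had 28.2, 10.5 and 17.1 FPKM in Mock, against 4.43, 6.49 and 6.25 FPKM in the HIF-1α-KD group on the same measure. Both ratios were lower in HIF-1α-KD cells without overlap, with HIF-1α-KD means 0.278 and 0.308 times those of Mock cells (exact p = 0.1 each). The collagen sum was 2.20 times that of Mock cells, whereas the P4ha and Plod sums were 0.705 and 0.789 times. Without Mock replicate 1, the library with the least collagen, the difference in the Plod ratio was -8.07 in place of -12.9 FPKM per 100 FPKM. For Serpinh1, whose level was higher together with the collagens, the ratio was 14.8 ± 4.7 in Mock and 10.9 ± 2.7 in HIF-1α-KD cells and overlapped (SD, n = 3 each, exact p = 0.3). These ratios depend on the length used. Per exon union the means in Mock and HIF-1α-KD cells were 21.6 and 6.16 for the P4ha genes, 26.1 and 8.07 for the Plod genes and 58.0 and 43.4 for Serpinh1, with the same directions. The summed FPKM of 7 pericyte and smooth muscle markers was higher as well, from 23.7 to 50.3 in Mock and from 55.7 to 63.7 in HIF-1α-KD libraries. In limma 3 of the 6 tested markers, Pdgfrb, Rgs5 and Cspg4, were higher at an unadjusted p-value under 0.05, beside 7.04% of all genes. For Acta2, Des and Tagln the unadjusted p-values of limma were 0.579, 0.285 and 0.686, and Tagln had a log2 fold change of -0.29. Pdgfrb carried most of the sum, and its FPKM overlapped, with 38.6 in Mock replicate 2 and 35.3 in HIF-1α-KD replicate 3. The cells were sorted for GFP, and the part of any remaining host cells of these types in the collagen and Serpinh1 values was not tested.

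**Figure D3:**
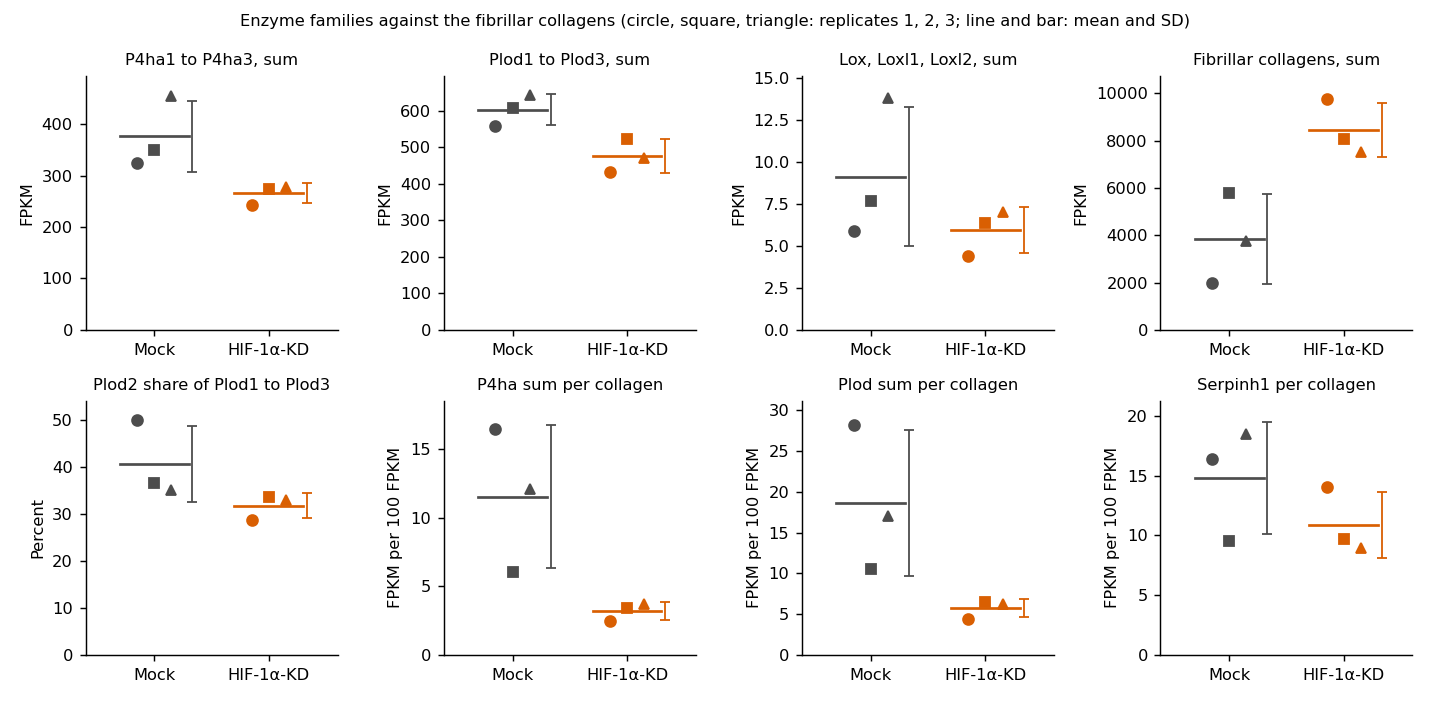
Summed FPKM of each enzyme family and of the fibrillar collagens, the share of Plod2 among Plod1 to Plod3, and the ratios of enzymes to collagen in FPKM per 100 FPKM, in each of 3 Mock and 3 HIF-1α-KD libraries with group mean and SD. The P4ha and Plod sums lie lower and the collagen sum higher in all HIF-1α-KD libraries, and Serpinh1 per collagen overlaps.

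Other genes of collagen maturation were lower or higher in HIF-1α-KD cells, and whether they differ as a group from the 10 genes was not tested. Of 29 listed genes, 23 passed the filter, and 7 of these were lower and 16 higher, with a median log2 fold change of 0.14. Without Mock replicate 1 that median was 0.0041, without Mock replicate 2 it was 0.23, and without both libraries numbered 1 it was 0.09. At an adjusted p-value under 0.05, limma, edgeR and DESeq2 called 0 of 23, beside 0.391%, 0.391% and 2.36% of all genes. In limma 3 of 23 had an unadjusted p-value under 0.05, a share near the 12.7% of all genes, and these 3, P3h1, Mia3 and Tgm2, were all higher, beside 7.04%. The groups did not overlap for 6 genes. P4hb was the lower one, beside 8.75% of all genes. P3h1, P3h2, P3h4, Fkbp14 and Mia3 were higher, beside 10.4% of all genes. P3h2, a prolyl 3-hydroxylase, P3h4, a partner of lysyl hydroxylase, and Fkbp14, a folding helper, had log2 fold changes of 0.24, 0.32 and 0.48 and are named here after their values were seen. P3h4 was at 0.18 without Mock replicate 1, 0.19 without HIF-1α-KD replicate 1 and 0.05 without both, and P3h2 at 0.13 without HIF-1α-KD replicate 3.

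P4hb, protein disulfide isomerase, forms the tetramer with the P4ha subunits and also serves other proteins. It had normalized counts of 75840, 70790 and 82110 in Mock, against 67640, 63470 and 58040 in the HIF-1α-KD group, with a log2 fold change of -0.27 ± 0.15 (SE, adjusted p = 0.496). The groups were apart, but narrowly. The P4ha sum per 100 FPKM of P4hb was 16.6 ± 2.2 in Mock and 13.8 ± 1.7 in HIF-1α-KD cells and overlapped (SD, n = 3 each, exact p = 0.2).

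P3h1, which 3-hydroxylates single prolines in a complex with Crtap, had normalized counts of 1398, 2124 and 2411 in Mock, against 3400, 2859 and 2919 in the HIF-1α-KD group. All HIF-1α-KD libraries were above all Mock libraries, where P4ha2 had them all below. The log2 fold change of P3h1 was 0.66 ± 0.21 (SE, adjusted p = 0.291), with 0.43 without Mock replicate 1 and 0.35 without both libraries numbered 1. That of Crtap was -0.04 ± 0.14 (SE), with a 95% interval from -0.36 to 0.28 and a sign that turned under library size scaling. Mia3, which helps to load procollagen into transport carriers, had a log2 fold change of 0.59 ± 0.24 (SE, adjusted p = 0.381), or 0.34 without Mock replicate 1 and 0.40 without both libraries numbered 1. Tgm2, a transglutaminase that crosslinks matrix proteins in another way, had one of 0.48 ± 0.21 (SE, adjusted p = 0.386), or 0.72 without HIF-1α-KD replicate 3 and 0.32 without both libraries numbered 1. With 1 library left out, the unadjusted p-value stayed under 0.05 in 6 of 6 fits for P3h1, in 4 of 6 for Mia3, all but those without Mock replicate 1 or HIF-1α-KD replicate 3, and in 1 of 6 for Tgm2, whose call remained only without HIF-1α-KD replicate 3. Loxl3 and Loxl4, the remaining lysyl oxidases, had log2 fold changes of 0.18 ± 0.26 and -0.15 ± 0.21 (SE), with overlapping groups. With 1 library left out these ranged from 0.0059 to 0.44 for Loxl3 and from -0.26 to -0.015 for Loxl4.

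**Figure D4:**
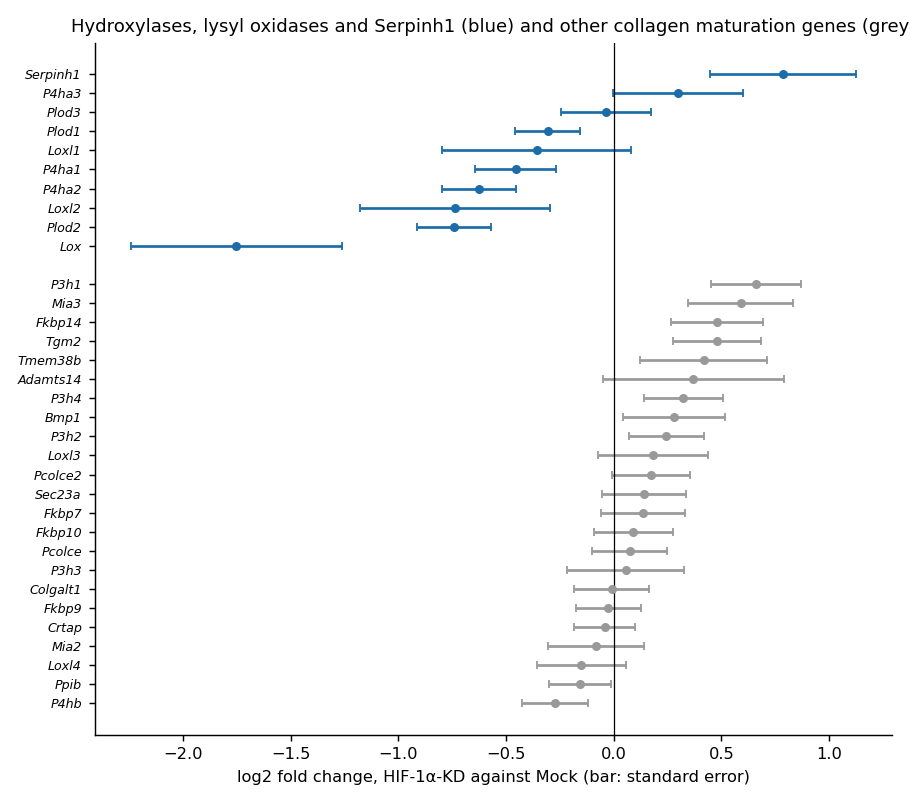
Log2 fold change of HIF-1α-KD against Mock (horizontal axis, points) with its standard error (bars) for the 10 genes in blue and the 23 tested genes of the further list in grey. Of the blue points 8 lie below 0, and of the grey points 16 lie above 0.

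Among the 10 genes, the centred log2 levels over the 6 libraries were closest for P4ha2 and Plod1, with a root mean square difference of 0.20, and for P4ha1 and P4ha2 with 0.22. They were farthest apart for Lox and Serpinh1, with 1.39. Outside the list, the gene nearest to Plod2 was Ccdc109b, with 0.07, where the median over all genes tested was 0.50. Its normalized counts were 1189, 835 and 1046 in Mock, against 524, 746 and 628 in the HIF-1α-KD group. The genes nearest to P4ha1 and P4ha2 were Fam107b and Gm14391, with 0.08 and 0.05, but Gm14391 had at most 21.7 normalized counts. For Lox it was Ndrg1, a gene known to respond to hypoxia, at a wider difference of 0.43. For Serpinh1 it was Thbs2, a matrix glycoprotein, with 0.11, and Thbs2 was also highest in HIF-1α-KD replicate 1, with 19410 normalized counts. For Plod1, Plod3, P4ha3, Loxl1 and Loxl2 the nearest genes were Cenph, Polr2e, Tnip1, Apod and Pls1, with differences of 0.04, 0.06, 0.07, 0.23 and 0.22. These are descriptions over 6 libraries that share their factors and group structure.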

How the data were processed

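RNA of sorted MC-38 GFP tumor cells was measured in 3 Mock and 3 HIF-1α-KD libraries, grouped by the knockdown in their labels. According to the methods, the authors used STAR for alignment of single-end reads to GRCh38, featureCounts for counting and DESeq2 for testing, whereas the submitters' processing notes name STAR, edgeR and GRCm38; the deposited identifiers are of mouse genes. Normalized counts, as deposited, are a signal: the authors scaled the count of each gene by 1 factor per library and kept 4 significant digits. FPKM, the transcript width and the GC fraction were deposited too. Their deposited log2 ratio, p-value and false discovery rate were not used.

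Reads were recovered by undoing the factor, and 100% of values up to 300 reads came out whole within 0.1 read. A filter (filterByExpr of edgeR, by group, minimum count of 10) left 12014 genes. The main test was limma-trend (limma 3.58.1) fitted to log2(normalized count + 1), two-sided, adjusted by Benjamini and Hochberg over all genes tested. Fold changes are on that log2(value + 1) scale, which understates changes of low genes. edgeR 4.0.16 and DESeq2 1.42.0 on the recovered reads were alternatives, and edgeR called 47 of all genes. Family shares and sums came from FPKM, with exact permutation tests. Scripts were tested on simulated data. The 10 genes and all lists were chosen with earlier results of these data known. Named are all 10 genes, listed maturation genes with an unadjusted p-value under 0.05, P4hb, Crtap, P3h1, Loxl3, Loxl4, Hif1a and, for each of the 10, the tested gene with the nearest profile. Single collagens, single cell type markers, P3h2, P3h4 and Fkbp14 are named outside this rule, after their values were seen. Mia2 was matched by its identifier to a row under an older symbol. Positions are from GENCODE M21 on GRCm38, for 22647 genes, and promoter windows from RefSeq. The replicate numbers were not taken as pairs. The software was R 4.3.3 and Python 3.11.15 with numpy 2.4.6, pandas 2.3.3, matplotlib 3.10.9 and scipy 1.17.1.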

Additional observations from a re-analysis of the deposited data

How the results depend on the processing

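Alternatives were the test, the scaling, the filter, the pseudocount (0.1 and 10), a replicate block, leaving out each library, the measure of length and, chosen after seeing the data, leaving out both libraries numbered 1 and dividing by the exon union. The count of the 10 genes at an adjusted p-value under 0.05 was 0 in each, except for 3 by DESeq2, and was 5 at an unadjusted p-value. At an unadjusted p-value under 0.05 it was 3 by limma without the trend, and 4 without any 1 library. For the 23 other maturation genes the count was 0 at an adjusted and 3 at an unadjusted p-value, and the latter was 1 without Mock replicate 1 and 1 without both libraries numbered 1. The log2 fold change of Plod3 turned to 0.020 under library size scaling and lay between -0.25 and 0.18 with 1 library left out. That of Loxl1 lay between -0.78 and 0.031, and that of Crtap between -0.12 and 0.020, with Crtap at 0.016 under library size scaling. The share of P4ha1 turned to -0.314 percentage points without Mock replicate 2, in a range up to 5.19 with 1 library left out, and the sum of the lysyl oxidases to 3.38 FPKM with Loxl3 and Loxl4 added. The cause of these turns was not tested. Library size scaling moved the median log2 fold change of all genes to 0.08.

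With the replicate number as a block, 4 of the 10 genes had an unadjusted p-value under 0.05, and 0 of all 12014 genes an adjusted one. Deviations of same-numbered libraries correlated at -0.14, -0.12 and 0.02, so the numbers give no sign of pairing. Lox, Loxl2 and P4ha3 had at most 294 reads in any library, and the part of depth in their spread was not tested.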
